A study of Mus musculus with 6 samples.

Results

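Amino acid transporters of the plasma membrane were followed as a group of 9 genes, Slc7a5, Slc3a2, Slc7a11, Slc1a5, Slc1a4, Slc38a2, Slc7a1, Slc7a2 and Slc6a6. The members are all probe sets that the platform annotation assigns to these genes, a rule that uses no signal. A probe set is a group of short probes on the array that are read together as 1 signal. All 9 genes had a probe set, 13 in total, out of 8251 genes named by a single symbol. Slc38a2 had 4 probe sets, Slc6a6 had 2 and the other 7 genes had 1 each.

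RNA came from NIH3T3 mouse fibroblasts, an immortalised line, that carry a Tet-off promoter driving the cooperating oncogenes Ha-ras and c-myc, and doxycycline keeps this promoter silent. All of the cells, in every group, also make a fusion of IRF-1 with the estrogen receptor (IRF-1hER) constantly, and estradiol activates it. The estradiol group had no doxycycline and received estradiol for 48 h, listed as 1 mM, so by design the oncogenes were on and IRF-1 active. The withdrawal group had neither agent, so by design the oncogenes were on. The doxycycline group received 2 µg/ml, so by design they were off. Each group had 2 arrays, and the title of doxycycline replicate 2 also names estradiol although its treatment entry lists doxycycline alone. The oncogenes and doxycycline itself cannot be told apart between groups, and neither can IRF-1 and other effects of estradiol. In every group the first replicate was extracted by RNeasy and the second by TRIZOL. Titles of the replicate 1 arrays also share a prefix that those of replicate 2 lack, and the titles do not explain it.

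Similarity between arrays followed the labels only in part. Arrays were compared on signal + 32, a scale that understates changes of dim probe sets. On that scale the array labelled withdrawal replicate 1 differed at least 2-fold from estradiol replicate 1 in 0.215% of 7453 tested probe sets. From the array labelled withdrawal replicate 2 it differed in 12.3%. Withdrawal replicate 2 differed from doxycycline replicate 1 in 4.35%. Whether labels were exchanged between arrays cannot be told from these data, and every value of the withdrawal group stands under that limit. For Slc7a5 and Slc38a2 the comparisons with that group are given with and without each of its arrays, and for the other tested transporters as ranges over the arrays left out. Of 9 fibroblast markers, 8 had signals above 29.0 on every array, all but Vim. The summed signal of the 9 was 15307 to 20130 with estradiol, 20074 to 24762 after withdrawal and 26291 to 27650 with doxycycline. Below 29.0 on every array were Ptprc, Cd3e and Lyz2 of 5 leukocyte markers and Epcam, Krt14 and Krt19 of 6 epithelial ones. So were Cdh5, Tek and Tie1 of 5 endothelial markers. The epithelial Krt8 and Krt18 and the endothelial Pecam1 and Kdr exceeded that level on some arrays only. Cd14 and Cd68, of 5 leukocyte markers on the array, and Cdh1, of 6 epithelial ones, exceeded it on every array, as did the muscle regulators Myod1 and Myog. The summed epithelial markers were 186.1 to 191.7 with estradiol, 148.5 to 174.6 after withdrawal and 224.1 to 228.3 with doxycycline. These sums of linear signals weigh the brightest probe sets most and do not give the direction of single markers. The part of these markers in the transporter values was not tested.

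Mammalian cells take up amino acids through carriers that divide the work. Uniporters and sodium-coupled carriers bring amino acids in, and exchangers trade one that is already inside for one that is outside. LAT1, the product of Slc7a5, imports leucine and other large neutral amino acids in exchange for intracellular glutamine, and leucine in turn is a signal for the growth kinase complex mTORC1. Myc is known to raise several of these carriers in proliferating cells, and the stress factor ATF4 raises many of them when amino acids run short.

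The values are MAS5 signals, which give how brightly a probe set lights up, on a linear scale with all arrays scaled to a common level. Signals of different probe sets are not comparable with each other. A total of 8 probe sets of 7 genes were bright enough for testing. The other 5 probe sets, those of Slc7a1 and Slc7a11 and 3 of Slc38a2, lay in the lowest 40% of the array and are given as values only.

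**Figure D1:**
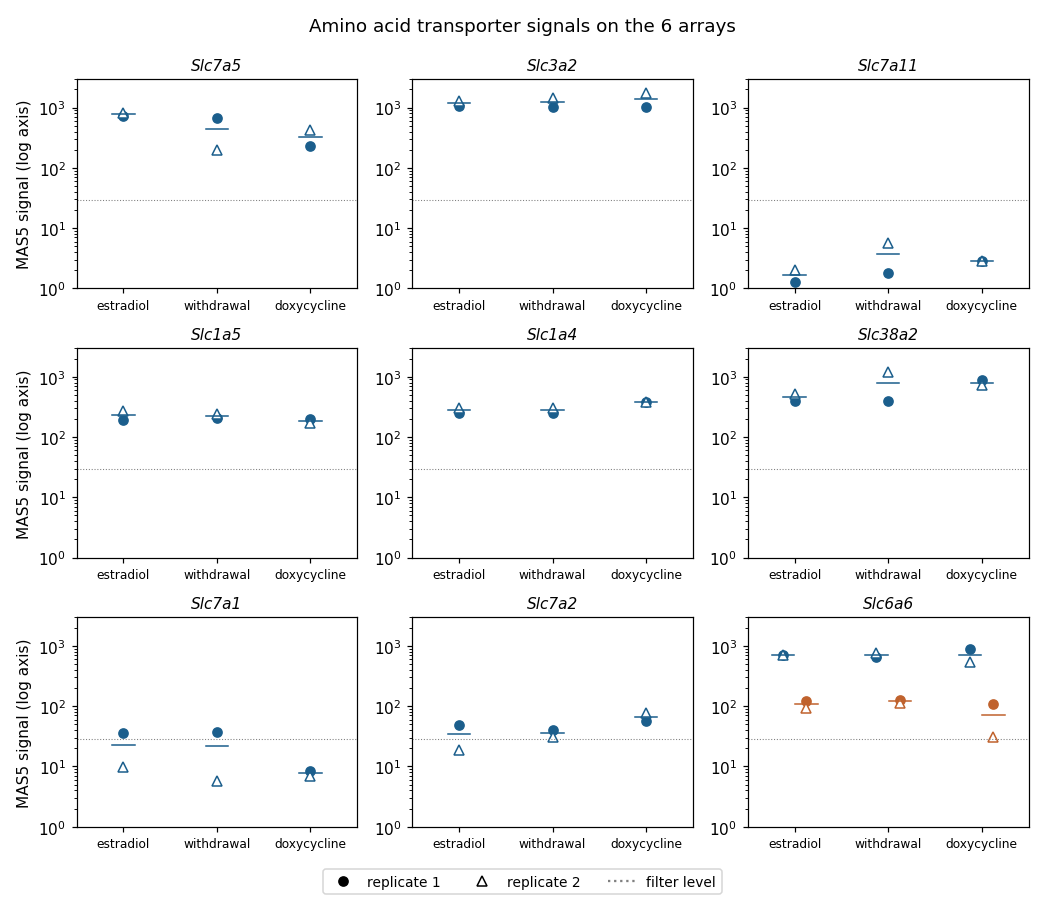
MAS5 signal (log axis) of the 9 transporter genes on the 6 arrays, with groups along the horizontal axis, filled circles for replicate 1, open triangles for replicate 2 and short lines for group means. The dotted line marks a signal of 29.0, the level of the filter, the dimmer Slc6a6 probe set is in orange, and the 3 dim probe sets of Slc38a2 are not drawn. Slc7a5 lies at 714.6 and 820.0 with estradiol and the 2 withdrawal arrays lie far apart, while Slc7a11 stays below the dotted line throughout.

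Slc7a5, the LAT1 exchanger, spanned a 4.09-fold range over the 6 arrays. Its signals were 714.6 and 820.0 with estradiol, 680.8 and 200.5 after withdrawal and 226.7 and 427.6 with doxycycline. Both estradiol arrays and withdrawal replicate 1 were high, and withdrawal replicate 2 was the lowest of the 6. The means were 767 ± 74.5 with estradiol, 441 ± 340 after withdrawal and 327 ± 142 with doxycycline (SD, n = 2 each).

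Slc3a2 encodes the heavy chain 4F2hc, also called CD98, which carries LAT1 and the cystine carrier xCT to the cell surface. Its signals were 1057.2 and 1286.8 with estradiol, 1036.7 and 1456.5 after withdrawal and 1030.4 and 1747.4 with doxycycline. Within each group replicate 2 was the higher array, and the groups overlapped. The range over the 6 arrays was 1.70-fold, narrower than that of its partner Slc7a5.

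Slc7a11, the cystine and glutamate exchanger xCT that feeds glutathione synthesis, gave hardly any signal. It read 1.3 and 2.0 with estradiol, 1.8 and 5.6 after withdrawal and 2.9 and 2.8 with doxycycline. All 6 values lie far below the filter level, so no order between groups can be read from them. The same holds for Slc7a1, the arginine and lysine carrier CAT1, on 4 of the arrays: it read 35.9 and 9.7 with estradiol, 37.9 and 5.7 after withdrawal and 8.4 and 6.9 with doxycycline. The RNeasy arrays of the estradiol and withdrawal groups, the closest pair of the series, were the 2 arrays on which Slc7a1 passed 29.0.

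Slc1a5 encodes ASCT2, a sodium-dependent exchanger that is a main entry route for glutamine. Its signals were 190.0 and 267.5 with estradiol, 208.6 and 240.4 after withdrawal and 202.4 and 167.9 with doxycycline. The estradiol values span both withdrawal values, and the lowest array was doxycycline replicate 2. Its relative Slc1a4 (ASCT1), which exchanges alanine, serine and cysteine, read 253.2 and 307.7 with estradiol, 252.1 and 299.7 after withdrawal and 379.7 and 373.6 with doxycycline. All 4 arrays without doxycycline lay below both doxycycline arrays. The share of all probe sets with such a split, here or for the genes below, was not counted.

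Slc38a2 encodes SNAT2, a sodium-coupled importer of small neutral amino acids that cells induce in amino acid shortage. Its bright probe set read 397.1 and 524.5 with estradiol, 396.0 and 1200.5 after withdrawal and 876.2 and 714.7 with doxycycline. The withdrawal group held both the lowest and the highest array. The other 3 probe sets of Slc38a2 are of a kind whose name ending (_r_at) marks relaxed rules for choosing probes, and they did not exceed 17.7 on any array. They therefore give no second reading of this gene.

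Slc7a2, the arginine carrier CAT2 that supplies nitric oxide synthase in activated macrophages, was dim. It read 49.5 and 19.0 with estradiol, 40.6 and 30.3 after withdrawal and 57.6 and 76.7 with doxycycline, and both doxycycline arrays were above the other 4. Slc6a6, the taurine carrier TauT, is read by a brighter and a dimmer probe set. The brighter one read 699.2 and 697.9 with estradiol, 645.6 and 762.5 after withdrawal and 871.2 and 547.7 with doxycycline. The dimmer one read 121.0 and 93.7 with estradiol, 126.4 and 112.6 after withdrawal and 110.1 and 30.5 with doxycycline. The groups overlap in the brighter probe set, and doxycycline replicate 2 is the lowest array in both.

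The promoters of 5 of the 9 genes, Slc7a11, Slc7a1, Slc1a4, Slc38a2 and Slc3a2, were read in 6 windows of 300 bases from RefSeq sequences of build GRCm38.p6. The letters TGATGNAA, the core of the C/EBP-ATF element through which ATF4 acts on amino acid genes, were searched on both strands. They occur in 3.97% of 32851 windows and in 2 of the 6 windows of the transporters, those of Slc7a11 and Slc1a4. The E-box CACGTG, a motif bound by Myc and Max, occurs in 7.15% of all windows and in 0 of these 6, which do not include Slc7a5, Slc1a5, Slc7a2 or Slc6a6, and the motifs do not overlap. A match or its absence is a description of these letters only. The stretches below run 5′ to 3′ on the gene's strand from 150 bases before the annotated start to 10 bases after it, with matches in capitals. They are shown for Slc7a11 and Slc1a4 because their windows held a TGATGNAA match, whatever their signal. The Slc7a11 stretch is chr3:50443604-50443763 and the Slc1a4 stretch chr11:20332704-20332863, both on the minus strand.
Slc7a11: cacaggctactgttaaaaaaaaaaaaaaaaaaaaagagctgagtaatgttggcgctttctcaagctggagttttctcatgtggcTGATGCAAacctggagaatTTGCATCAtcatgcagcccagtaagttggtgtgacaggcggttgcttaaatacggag
Slc1a4: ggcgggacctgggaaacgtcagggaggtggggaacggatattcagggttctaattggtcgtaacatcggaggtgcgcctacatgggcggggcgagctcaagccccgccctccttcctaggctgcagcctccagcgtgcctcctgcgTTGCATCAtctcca
The Slc7a11 matches begin 66 and 47 bases before the start and lie on opposite strands. The single Slc1a4 match begins 4 bases before the start, on the strand opposite to the gene.

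The comparison of withdrawal with doxycycline asks what the oncogenes change. None of the transporters passed the test, and several differed in sign between the 2 replicate numbers. Differences are log2 fold changes of signal + 32, a scale that understates changes of dim probe sets. The test was limma over all 7453 probe sets with Benjamini-Hochberg adjustment. It called 0 of the 8 transporter probe sets, against 0.0% of all probe sets, with 0 of the 8 at an unadjusted p under 0.05, against 4.37% of all.

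Slc7a5 differed by 0.24 after withdrawal (SE 0.52, 95% interval -0.95 to 1.43, limma adjusted p = 0.968). The RNeasy arrays (replicate 1) gave 1.46 and the TRIZOL arrays (replicate 2) -0.98, so the sign depends on the pair. Leaving out withdrawal replicate 2 gave 1.05, leaving out withdrawal replicate 1 gave -0.57, and leaving out doxycycline replicate 1 gave -0.18. Slc38a2 had the opposite signs, with -0.18 overall (SE 0.47), -1.09 between the RNeasy arrays and 0.72 between the TRIZOL arrays. Leaving out withdrawal replicate 2 gave -0.94 and leaving out withdrawal replicate 1 gave 0.58.

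Slc1a4 and Slc7a2 had lower values after withdrawal in both replicate numbers. Slc1a4 stood at -0.41 (SE 0.26, 95% interval -1.02 to 0.19), with -0.54 and -0.29 in the replicate numbers. Slc7a2 stood at -0.55 (SE 0.30, 95% interval -1.24 to 0.13), with -0.30 and -0.80. Leaving out any array of the 2 groups kept both negative, from -0.52 to -0.30 for Slc1a4 and from -0.69 to -0.41 for Slc7a2. Their limma adjusted p was 0.935 and 0.925.

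The glutamine carrier Slc1a5 stood at 0.24 (SE 0.28), with 0.04 and 0.45 in the replicate numbers and 0.13 to 0.36 when an array was left out. The heavy chain Slc3a2 stood at -0.12 (SE 0.35), with 0.01 and -0.26, and -0.50 to 0.25 when an array was left out. The Slc6a6 probe sets disagreed, at 0.02 (SE 0.31) for the brighter and 0.68 (SE 0.38) for the dimmer. The value of 0.68 rests on the low signal of 30.5 on doxycycline replicate 2 and was 0.09 without that array and 1.28 without doxycycline replicate 1. The brighter one ran from -0.30 to 0.34 when an array was left out. The withdrawal and doxycycline arrays did not overlap in 4 of the 8 probe sets, with Slc1a5 and the dimmer Slc6a6 probe set higher and Slc1a4 and Slc7a2 lower. Over all probe sets 16.9% were higher and 15.0% lower without overlap.

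**Figure D2:**
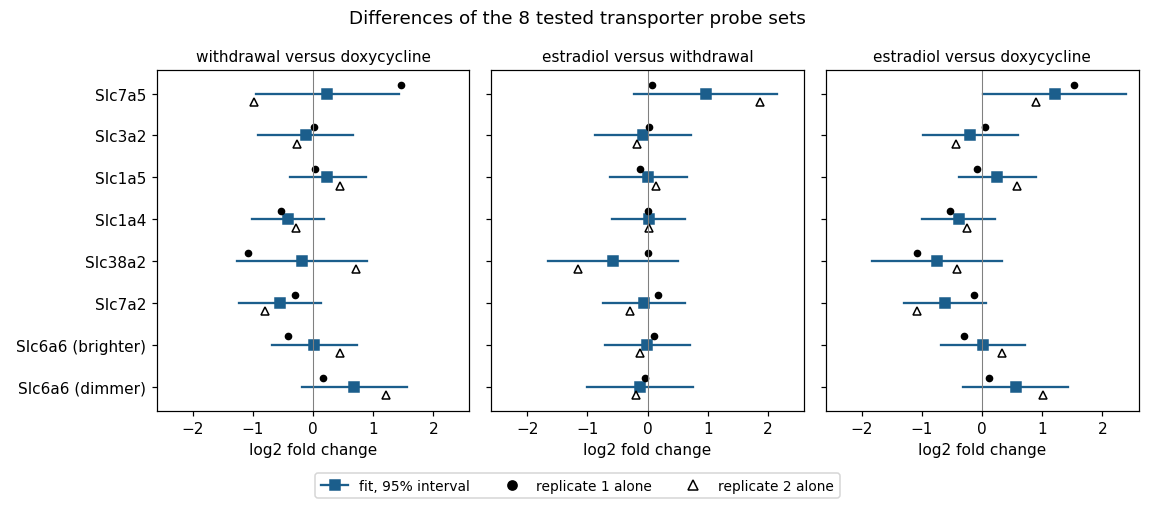
Log2 fold changes (horizontal axis) of the 8 tested probe sets in the 3 comparisons, with squares and bars for the limma estimate and its 95% interval, circles for replicate 1 alone and triangles for replicate 2 alone. The replicate points of Slc7a5 lie on opposite sides of 0 for withdrawal against doxycycline, at 1.46 and -0.98, and on the same side for estradiol against doxycycline, at 1.53 and 0.89.

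The comparison of estradiol with withdrawal asks what active IRF-1 changes while the oncogenes are on. The transporters hardly differed in replicate 1, and in replicate 2 the differences were mainly those of Slc7a5 and Slc38a2. Limma called 0 of the 8 probe sets, against 0.0% of all, and 0 of the 8 had an unadjusted p under 0.05, against 0.698% of all. Slc7a5 was the sole probe set of the 8 whose groups did not overlap. It was higher with estradiol, and 11.6% of all probe sets were higher and 10.3% lower without overlap.

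Slc7a5 differed by 0.97 (SE 0.52, 95% interval -0.22 to 2.16, limma adjusted p = 1.00), with 0.07 between the RNeasy arrays and 1.87 between the TRIZOL arrays. The value was 0.16 when withdrawal replicate 2 was left out and 1.78 when withdrawal replicate 1 was. Slc38a2 differed by -0.57 (SE 0.47, 95% interval -1.65 to 0.51), with 0.00 and -1.15 in the replicate numbers. Its value was 0.19 when withdrawal replicate 2 was left out and -1.33 when withdrawal replicate 1 was. Both differences thus rest on the array labelled withdrawal replicate 2.

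The remaining 6 probe sets had estimates between -0.13 and 0.02. Of these 6, Slc1a4 differed least between the replicate numbers, with 0.01 and 0.03. It stood at 0.02 (SE 0.26, 95% interval -0.59 to 0.63), and at -0.11 to 0.15 when an array was left out. Over the 6, values with an array left out ran from -0.40 for Slc7a2 to 0.28 for the same gene. An interval of this width does not show that estradiol left the carrier alone.

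By design, estradiol against doxycycline compares cells with both oncogenes and active IRF-1 against cells with neither. The title of doxycycline replicate 2 also names estradiol, so for that array the absence of active IRF-1 is not certain. This comparison shares its arrays with the others, so its values are not independent of theirs. Slc7a5 was higher and Slc1a4, Slc38a2 and Slc7a2 were lower with estradiol without overlap, yet none passed the test. Limma called 0 of the 8 probe sets, against 0.0% of all. An unadjusted p under 0.05 was reached by 1 of the 8, Slc7a5, against 14.0% of all. Of the 8 probe sets 1 was higher and 3 were lower without overlap, against 27.0% higher and 24.7% lower among all probe sets. Without overlap in either direction were 4 of the 8, near the 51.7% of all probe sets.

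Slc7a5 differed by 1.21 (SE 0.52, 95% interval 0.02 to 2.40, limma adjusted p = 0.351). Its values were 1.53 in replicate 1 and 0.89 in replicate 2, and between 0.80 and 1.62 when an array was left out. Slc38a2 differed by -0.75 (SE 0.47), with -1.08 and -0.42, and lay between -0.94 and -0.57 when an array was left out. Slc7a2 differed by -0.61 (SE 0.30), with -0.14 and -1.09, and stood at -0.28 without estradiol replicate 2 and -0.95 without estradiol replicate 1. Slc1a4 differed by -0.39 (SE 0.26), with -0.53 and -0.26, and -0.52 to -0.27 when an array was left out. The limma adjusted p was 0.499 for Slc38a2, 0.389 for Slc7a2 and 0.536 for Slc1a4. Slc3a2 stood at -0.20 (SE 0.35), Slc1a5 at 0.25 (SE 0.28), and the Slc6a6 probe sets at 0.01 (SE 0.31) and 0.56 (SE 0.38). The value of 0.56 was -0.04 without doxycycline replicate 2 and 1.15 without doxycycline replicate 1, and Slc1a5 ran from 0.04 to 0.47 when an array was left out.

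Over the 7 tested genes, each read by its brightest probe set, the median difference was -0.12 for withdrawal against doxycycline, against 0.02 over 5662 tested genes. It was -0.01 for estradiol against withdrawal and -0.20 for estradiol against doxycycline, against 0.00 over all genes in both. In replicates 1 and 2 alone these medians were -0.30 and -0.26, 0.03 and -0.12, and -0.14 and -0.26, in the same order of comparisons. In each comparison 3 of the 7 genes had a positive and 4 a negative estimate, so the carriers did not share a direction.

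The profile of Slc7a5 over the 6 arrays was set against that of every other tested gene, each read by its brightest probe set. The measure was the mean absolute difference of mean-centred log2(signal + 32) over the 6 arrays. The closest of 5661 genes were St6galnac4, a sialyltransferase, and Mthfd2, an enzyme of mitochondrial folate metabolism, each at 0.11. Ak4, an adenylate kinase, Nsun2, an RNA methyltransferase, and Eln, which encodes elastin, followed at 0.18 each. Mthfd2 read 658.2 and 745.7 with estradiol, 693.4 and 224.5 after withdrawal and 201.0 and 344.9 with doxycycline, the same split of arrays as in Slc7a5. Of the other transporters Slc1a5 ranked 2624, near the middle, and the rest were further down: Slc6a6 3906, its partner Slc3a2 4123, Slc7a2 4329, Slc1a4 4331 and Slc38a2 5489. The likeness is a description over 6 arrays that share the splits described above.

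**Figure D3:**
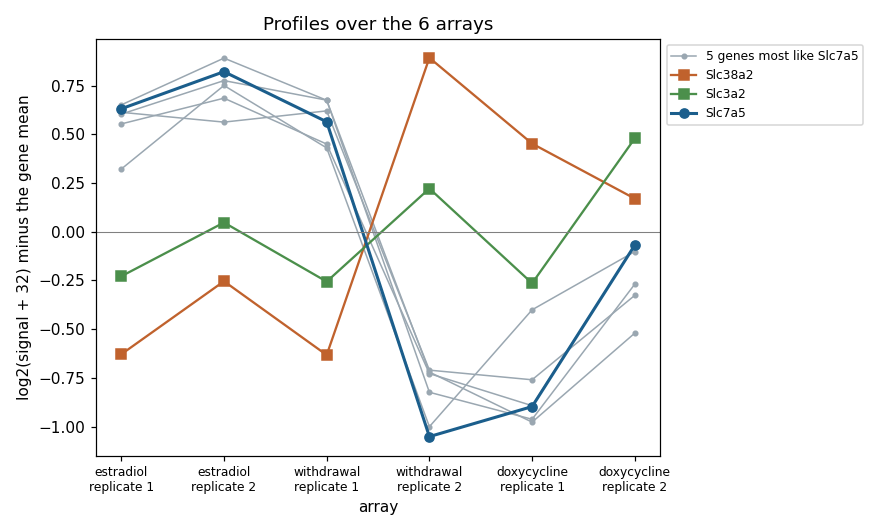
Mean-centred log2(signal + 32) on the vertical axis for each of the 6 arrays on the horizontal axis, for Slc7a5, its partner Slc3a2, Slc38a2 and the 5 genes closest to Slc7a5 (grey), with lines joining the arrays of a gene to guide the eye. Slc7a5 and the grey genes are high on 3 arrays and low on withdrawal replicate 2 and doxycycline replicate 1, where Slc38a2 is high at 0.89 and 0.45.

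Other genes of amino acid handling were looked at as lists, with each gene read by its brightest probe set. The 4 genes named from each list are those with the smallest unadjusted limma p in any comparison. Such picking favours clean splits between groups, so the splits of named genes are descriptions only. Of 38 other amino acid transporters 16 were on the array and 7 were tested. Limma called 0 of the 7 in each of the 3 comparisons, against 0.0% of all probe sets. Slc25a15, the mitochondrial ornithine carrier, read 140.3 and 149.4 with estradiol, 150.8 and 78.5 after withdrawal and 55.3 and 35.6 with doxycycline. It differed by 0.89 (SE 0.31) for withdrawal and by 1.20 (SE 0.31) for estradiol against doxycycline, with limma adjusted p of 0.925 and 0.255. When an array was left out these values ran from 0.52 to 1.25 and from 1.02 to 1.39. Both doxycycline arrays were below the other 4. Estradiol against doxycycline gave 0.80 (SE 0.42) for Slc38a4, a carrier of small neutral amino acids, and -0.57 (SE 0.30) and -0.45 (SE 0.28) for its relatives Slc38a10 and Slc38a5.

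Genes of the ATF4 and amino acid response had estimates of both signs. All 22 on the array were tested, and 0 were called, against 0.0% of all probe sets. For withdrawal against doxycycline 11 had a positive and 11 a negative estimate (median 0.00). The RNeasy arrays alone gave a median of 0.37 and the TRIZOL arrays -0.27. With estradiol against doxycycline 13 were positive and 9 negative (median 0.20, with 0.32 and -0.03). Without overlap 9 of the 22 were higher and 4 lower, against 27.0% and 24.7% of all probe sets. An unadjusted limma p under 0.05 was reached by 5 of the 22, against 14.0% of all. Ddit3, the stress factor CHOP, read 130.7 and 96.6 with estradiol, 124.9 and 155.5 after withdrawal and 270.7 and 481.2 with doxycycline, and both doxycycline arrays were the highest. Vegfa, an angiogenic growth factor, stood at -0.79 (SE 0.26) for estradiol against doxycycline. Psat1, of serine synthesis, had both doxycycline arrays lowest, with 2602.0 and 3040.2 with estradiol, 2550.5 and 1409.3 after withdrawal and 1223.6 and 1149.5 with doxycycline. Estradiol against doxycycline thus gave -1.45 (SE 0.32) for Ddit3, 1.22 (SE 0.34) for Psat1 and 1.31 (SE 0.48) for Mthfd2. The limma adjusted p was between 0.255 and 0.308 for the 4 named genes. Withdrawal against doxycycline gave -1.20 (SE 0.32) for Ddit3, -0.67 (SE 0.26) for Vegfa, 0.66 (SE 0.34) for Psat1 and 0.54 (SE 0.48) for Mthfd2. Their limma adjusted p there was between 0.925 and 0.935.

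Enzymes that use the imported amino acids were also not called, 0 of 16 tested in each comparison, against 0.0% of all probe sets. For estradiol against doxycycline 9 were positive and 7 negative, with a median of 0.25 that differed in sign between replicate 1 (-0.20) and replicate 2 (0.44). Without overlap 7 of the 16 were higher and 6 lower, against the 27.0% and 24.7% of all probe sets, and the lowest estimate was -1.05. The genes named next are those with the smallest unadjusted p, all of them higher. Gsr, glutathione reductase, read 425.9 and 493.2 with estradiol, 388.6 and 179.2 after withdrawal and 139.0 and 119.9 with doxycycline (1.61, SE 0.35, limma adjusted p = 0.255). Gclm, a subunit of the enzyme that starts glutathione synthesis, differed by 1.04 (SE 0.38), Odc1, which turns ornithine into putrescine, by 1.00 (SE 0.30) and Bckdhb, of branched-chain amino acid breakdown, by 0.91 (SE 0.31). These 4 had both doxycycline arrays below the other 4 arrays, a split that picking genes by p favours. Its share among all probe sets was not counted. The cystine carrier Slc7a11 gave no usable signal.

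For genes of mTORC1 and amino acid sensing, limma called 0 of 13 tested in each comparison, against 0.0% of all probe sets. Estimates for estradiol against doxycycline ranged from -0.36 to 0.33 (median -0.16, with 0.03 in replicate 1 and 0.06 in replicate 2). Tsc2, an inhibitor of the pathway, stood at -0.34 (SE 0.31) there and the S6 kinase Rps6kb2 at 0.33 (SE 0.27). In the same comparison Lamtor1, a lysosomal scaffold, stood at 0.24 (SE 0.28) and the mTOR partner Mlst8 at -0.16 (SE 0.27). For withdrawal against doxycycline the list ran from -0.48 to 0.31, with Mlst8 at -0.48 (SE 0.27, limma adjusted p = 0.925). For estradiol against withdrawal it ran from -0.16 to 0.32.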

How the data were processed

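The authors' deposited values are MAS5 signals, intensity on a linear scale, per the submitters' processing notes. Not given in the sources used here are the version and settings of the software. Biotin-labelled cRNA was hybridised, 1 array per sample. Each array was scaled to a common 2% trimmed mean, with factors between 0.999968 and 1.00006. Of 12422 probe sets other than 66 controls, 10833 had 1 gene symbol in the platform annotation, and 0 symbols needed an update. The lowest 40% by mean log2 signal were left out and 7453 tested on log2(signal + 32) with limma (3.58.1, R 4.3.3). The model had 1 mean per group over 6 arrays and trended empirical Bayes moderation (3 residual and 5.23 prior degrees of freedom). P-values were two-sided and Benjamini-Hochberg adjusted, with a threshold of 0.05. The code was tested on simulated data.

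Precision is limited by there being 2 arrays in each group. The labels do not call replicates separate cultures, so p-values reflect the spread of these arrays alone, and that spread may be technical. By the labels, arrays of 1 replicate number share an extraction method, a shared batch that pairs them. Deviations from the group means correlated at -0.00727 (doxycycline and withdrawal), -0.0284 (doxycycline and estradiol) and 0.449 (withdrawal and estradiol) between same-numbered arrays. Members and lists were chosen with earlier results of these data known. Named genes were all member probe sets, the 4 genes of each other list with the smallest unadjusted p in any comparison, and the 5 closest to Slc7a5. Alternatives were pseudocounts of 16 and 64, no filter, quantile normalization, a replicate block, a fit on the 2 groups compared and leaving out each array.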

Additional observations from a re-analysis of the deposited data

How the results depend on the processing

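No transporter probe set passed the test under any alternative. The lowest adjusted p for a transporter was 0.298 for withdrawal against doxycycline, 0.093 for estradiol against withdrawal (Slc7a5 without withdrawal replicate 1) and 0.0818 for estradiol against doxycycline (Slc7a5 with the 2 groups alone). The replicate block changed no call, with 0 probe sets in each comparison. Over all probe sets, limma called 132 for estradiol against doxycycline in a fit on those groups alone. When 1 array was left out, calls ranged from 0 to 26 for withdrawal against doxycycline, from 0 to 17 for estradiol against withdrawal and from 0 to 28 for estradiol against doxycycline. The lone array of a group is then assumed to vary like the other groups. Calls appeared only without doxycycline replicate 1 (26 and 28) or withdrawal replicate 1 (17).

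The median over the transporters moved to 0.02 (withdrawal against doxycycline) and -0.05 (estradiol against doxycycline) without the filter, which adds the dim genes Slc7a1 and Slc7a11. Without 1 array it ranged from -0.36 to 0.11, from -0.11 to 0.13 for estradiol against withdrawal, and from -0.38 to -0.06 for estradiol against doxycycline.

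With each of the 7 tested genes read by its brightest probe set, leaving out 1 array changed the sign in 19 of 84 estimates. Under the other alternatives 1 of 126 changed sign (Slc1a5, -0.0038 for estradiol against withdrawal with quantile normalization). The dimmer Slc6a6 probe set is not in these counts or in the ranges below. Without 1 array it ran from -0.27 to 0.02 for estradiol against withdrawal and from -0.04 to 1.15 for estradiol against doxycycline. For withdrawal against doxycycline the ranges without 1 array were -0.57 to 1.05 for Slc7a5, -0.94 to 0.58 for Slc38a2, -0.50 to 0.25 for Slc3a2 and -0.30 to 0.34 for Slc6a6. For estradiol against withdrawal they were -0.11 to 0.15 for Slc1a4, -0.21 to 0.23 for Slc1a5, -0.40 to 0.28 for Slc7a2, -1.33 to 0.19 for Slc38a2, -0.12 to 0.11 for Slc6a6 and -0.31 to 0.17 for Slc3a2. For estradiol against doxycycline they were -0.31 to 0.33 for Slc6a6 and -0.57 to 0.17 for Slc3a2. The cause was not tested. Signals near or below 29.0 limit Slc7a1, Slc7a2 and Slc7a11.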
